A study of Mus musculus with 20 samples.

Results

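The uridine diphosphate glucuronosyltransferase (Ugt), cytosolic sulfotransferase (Sult) and soluble glutathione S-transferase (Gst) genes were examined in livers of mice with a hepatocyte-specific knockout of Hsd17b12. Members were taken by symbol: Ugt1a, Ugt2 and Ugt3 genes, Sult genes, and Gst genes of the alpha, kappa, mu, omega, pi, theta and zeta classes, with pseudogenes left out. The deposited count table held 59 such genes of 20914, namely 20 Ugt, 17 Sult and 22 Gst genes. The deposited annotation lists 4 more symbols that meet the rule, Sult1c1, Sult2a3, Sult2a4 and Sult3a2, and these were not analysed here.

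RNA was taken as total RNA from 1 liver lobe, the left lateral one, in 20 males at 8 weeks of age, of the strain given as LiB12cKO. All mice carried the floxed gene on both alleles. The 10 knockout mice (KO) had the genotype HSD17B12lox/lox;Alb-CreCre/WT and the 10 controls (WT) were HSD17B12lox/lox;Alb-CreWT/WT. Cre was driven by the albumin promoter, which acts in hepatocytes, and whether it acted in other cells of the liver was not tested. All KO mice and no WT mice carried Cre, so effects of Cre and of the loss of Hsd17b12 cannot be told apart. Hsd17b12 encodes a 3-ketoacyl-CoA reductase of fatty acid elongation, and the series title names body weight and lipid droplets as its subjects.

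Conjugation makes lipophilic compounds more soluble so that they can leave the cell. Ugt enzymes of the endoplasmic reticulum attach glucuronic acid from UDP-glucuronic acid to bilirubin, steroids, bile acids and drugs. Sult enzymes of the cytosol transfer sulfate from 3'-phosphoadenosine-5'-phosphosulfate (PAPS) to phenols, steroids and bile acids, and Gst enzymes join glutathione to electrophiles such as products of lipid peroxidation. Hepatocytes are a main site of all of these reactions.

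Values of single genes are CPM, the share of a gene in the fragments of its library after scaling for library composition, and each fold change is that of KO over WT from edgeR's quasi-likelihood test with a standard error (SE). A gene was called at an adjusted p under 0.05, with Benjamini-Hochberg adjustment over 13670 tested genes. RNA of Hsd17b12 lay between 44.0 and 51.3 CPM in KO and between 123 and 177 CPM in WT, a log2 fold change of -1.66 (adjusted p = 3.845e-14, edgeR). Between 16693195 and 24895938 fragments were assigned to genes in KO mice and between 19676907 and 29124124 in WT mice. Fragments marked as multi-mapping made up 2.09% to 8.46% in KO and 3.38% to 14.1% in WT. The composition factors (TMM) also differed, averaging 1.18 ± 0.0612 over the 10 KO mice and 0.852 ± 0.0609 over the 10 WT mice (± SD). With library size alone in place of these factors the median over all tested genes, in log2 fold change, moved by 0.47, from -0.02 to 0.44. The share of all calls that were higher in KO then went from 47.7% to 91.1%. The value with library size alone is given beside members whose direction or call depends on this choice.

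Of the 59 members 42 passed the filter on low counts and were tested. In KO 13 of them were higher, 19 were lower and 10 were not called. Of all tested genes 59.2% were called, 28.2% higher and 31% lower, and of the tested members 76.2% were called. The members called higher were a share near that of all genes. A change of at least 2-fold was called upward in 5 members and downward in 10, where 7.69% of all genes were called upward and 4.1% downward by that much. With library size alone 19 members were higher and 14 lower, against 68.4% and 6.71% of all genes.

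The families were made up differently. Among 20 tested Gst genes 9 were higher and 6 lower, with a median log2 fold change of 0.10. Among 15 tested Ugt genes 4 were higher and 8 lower, with a median of -0.38. Among 7 tested Sult genes 0 were higher and 5 lower in edgeR's test, with a median of -1.08. At an unadjusted p under 0.05, and by DESeq2, 0 Sult genes were likewise higher, and the median of all tested genes was -0.02. With library size alone the medians became 0.58 for Gst, 0.09 for Ugt and -0.64 for Sult genes, against 0.44 for all genes. The Ugt median thus changes sign with the scaling, and the Sult median does not. The difference between the families was not tested, since genes of a family are not replicates.

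**Figure D1:**
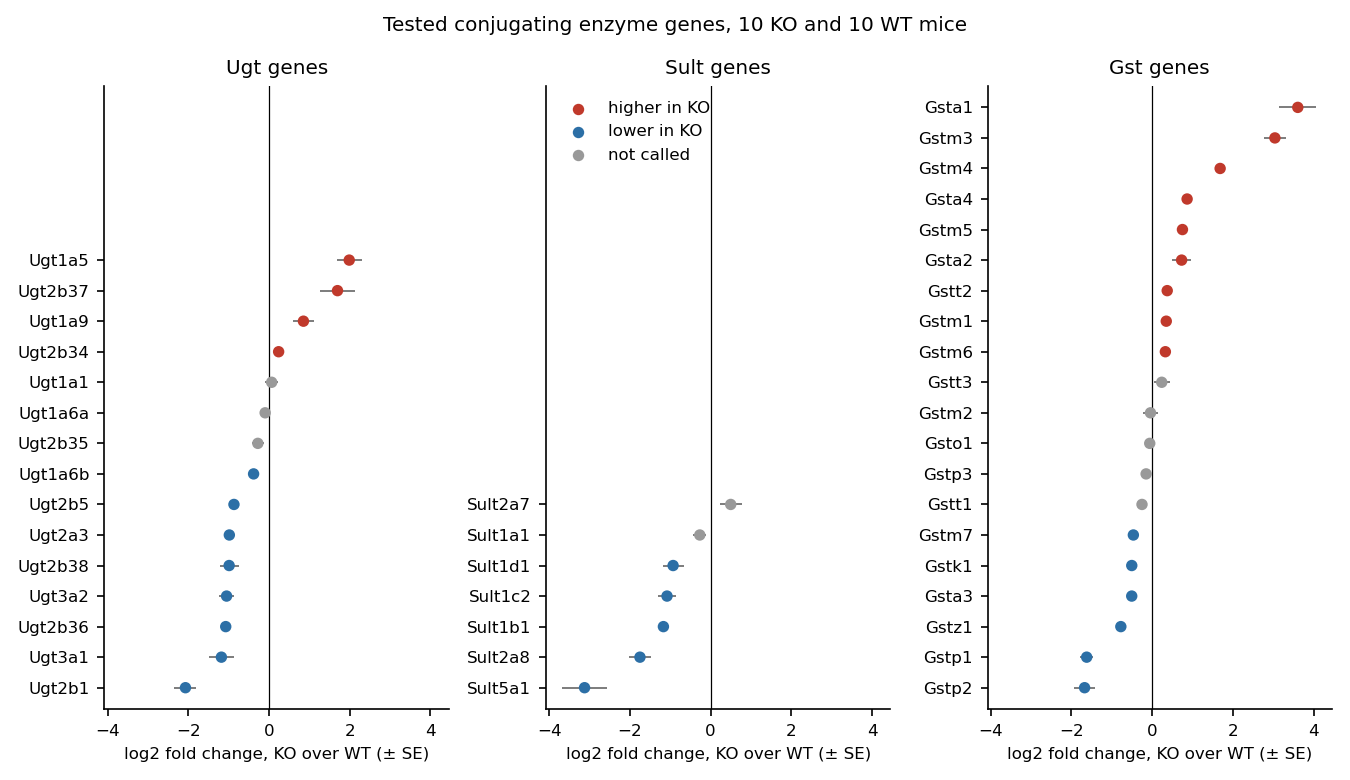
Log2 fold change of KO over WT with its SE (horizontal axis) for each tested Ugt, Sult and Gst gene (vertical axis), coloured by call at an adjusted p under 0.05. Gst genes spread to both sides, from -1.68 for Gstp2 to 3.61 for Gsta1, while 5 of the 7 Sult genes lie on the lower side as called genes.

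Ranges of the genotypes did not overlap for 9 members. In Gsta1, Gstm3, Gstm4 and Gstm5 all KO mice were above all WT mice, which held for 7.2% of all tested genes. In Gstp1, Gstz1, Sult1b1, Ugt2a3 and Ugt2b36 all KO mice were below all WT mice, which held for 6.12% of all tested genes.

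The alpha class Gst genes encode major transferases of liver, which act on lipid hydroperoxides and reactive aldehydes. Gsta1 (chromosome 9, 78230669 to 78242683, build mm10) ran from 7.40 to 84.2 CPM in KO with a median of 32.1, and from 0.824 to 6.54 CPM in WT with a median of 2.80. The lowest KO mouse was above the highest WT mouse, and the log2 fold change of 3.61 (SE 0.46, adjusted p = 1.83e-06, edgeR) was the largest rise among the tested members. The neighbouring Gsta2 ran from 18.5 to 54.1 CPM in KO and from 6.95 to 32.4 CPM in WT, so its ranges overlapped, and it rose by a log2 fold change of 0.73 (SE 0.24, adjusted p = 0.0117, edgeR). Both genes are near copies, with 97.61% identity of their coding sequences, and their first 120 coding bases are the same. That stretch is shown because fragments that lie wholly within it cannot be placed in one gene or the other.

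Gsta1 and Gsta2, coding bases 1 to 120: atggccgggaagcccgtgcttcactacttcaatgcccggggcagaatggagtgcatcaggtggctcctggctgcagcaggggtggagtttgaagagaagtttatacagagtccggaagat

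Summed into 1 gene before the fit, Gsta1 and Gsta2 averaged 67.7 CPM in KO and 22.04 CPM in WT, a log2 fold change of 1.61 (SE 0.28, adjusted p = 7.19e-05, edgeR). The rise of the pair is thus smaller than that fitted for Gsta1 and larger than that for Gsta2. How the authors' counting shared out such fragments is not stated in these sources.

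Gsta4, whose enzyme is known for conjugating 4-hydroxynonenal, ran from 57.9 to 110 CPM in KO with a median of 77.2, and from 34.5 to 60.9 CPM in WT with a median of 44.0. A single KO mouse, KO_391 at 57.9 CPM, fell within the WT range, and the log2 fold change was 0.87 (SE 0.12, adjusted p = 3.69e-06, edgeR). Gsta3, the alpha class gene with the highest level in mouse liver here, went the other way. It ran from 640 to 1152 CPM in KO with a median of 839, and from 899 to 1392 CPM in WT with a median of 1172. The ranges overlapped, and the log2 fold change of -0.51 (SE 0.10, adjusted p = 2.31e-04, edgeR) became -0.04 (adjusted p = 0.702) with library size alone. The call on Gsta3 therefore holds relative to the composition-scaled library.

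The mu class genes lie side by side on chromosome 3, between 107895854 and 108044859, and all 7 were tested. Of these 5 were higher, Gstm7 was lower and Gstm2 was not called. Gstm3 ran from 88.4 to 382 CPM in KO with a median of 298, and from 18.6 to 50.0 CPM in WT with a median of 31.0. The groups stood apart, with a log2 fold change of 3.04 (SE 0.26, adjusted p = 9.11e-09, edgeR). Gstm4 ran from 94.5 to 179 CPM in KO with a median of 124, and from 33.3 to 49.4 CPM in WT with a median of 42.1. Its 10 KO mice lay above all WT mice, with a log2 fold change of 1.68 (SE 0.10, adjusted p = 2.19e-11, edgeR). Gstm5 also separated the genotypes at a much lower level, with a median of 11.4 CPM in KO and 6.74 CPM in WT and a log2 fold change of 0.75 (SE 0.10, adjusted p = 2.18e-06, edgeR). Of the Gstm5 exon bases 15.9% overlap 4933431E20Rik.

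Gstm1, the most abundant mu class gene, ran from 876 to 1239 CPM in KO with a median of 985, and from 645 to 1037 CPM in WT with a median of 807. It rose by a log2 fold change of 0.35 (SE 0.09, adjusted p = 1.86e-03, edgeR) with overlapping ranges. Gstm6 rose by 0.33 (adjusted p = 9.94e-03) and Gstm7 fell by 0.47 (adjusted p = 2.80e-04) on the log2 scale in edgeR's test. For Gstm7 the value with library size alone was -0.0045, so its call is lost under that scaling. Gstm2 had a median of 46.9 CPM in KO and 47.5 CPM in WT and was not called, with a log2 fold change of -0.04, or 0.44 with library size alone.

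The antioxidant response element, the site bound by NRF2 (the product of Nfe2l2), is known from promoters of several Gst genes. Its core, written TGACNNNGC, was searched on both strands in the 250 bases before the start of each gene in RefSeq's promoter sequences (build GRCm38.p6), which covered 51 members. Within this window it was found in 3 of these, or 5.88%, and in 11.5% of all 27025 genes. The 51 members pool Ugt, Sult and Gst genes. Sites farther from the start were not searched, so a gene without a match may still hold one. The 3 stretches are shown, with the core in capitals, since they include a gene that rose (Gstm5) and genes that fell (Gsta3 and Gstm7).

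Gsta3, chr1:21240434-21240502, plus strand, core 121 bases before the start: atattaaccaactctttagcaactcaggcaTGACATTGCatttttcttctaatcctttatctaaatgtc

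Gstm5, chr3:107895782-107895850, plus strand, core 42 bases before the start: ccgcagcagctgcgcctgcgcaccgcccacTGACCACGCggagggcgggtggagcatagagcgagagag

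Gstm7, chr3:107931705-107931773, minus strand, core 129 bases before the RefSeq start used for the window: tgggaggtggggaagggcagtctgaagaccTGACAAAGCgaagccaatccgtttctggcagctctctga

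The deposited annotation starts Gstm7 further upstream, at 107931745, so that its core lies inside the gene as counted here. The core of the aryl hydrocarbon receptor's element, GCGTG on either strand, was found in 9 of the 51 members (17.6%) and in 30.9% of all genes. The 9 members were Gsta2, Gstm1, Gstm5, Gstp1, Gstp3, Sult1b1, Sult1d1, Sult2b1 and Ugt1a5. A match describes letters in this window and is not a measured site.

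In the pi class 2 of 3 genes fell. Gstp1 (chromosome 19, 4035411 to 4037912) encodes the pi class transferase that is abundant in livers of male mice. It ran from 273 to 603 CPM in KO with a median of 342, and from 640 to 1494 CPM in WT with a median of 1189. All KO mice lay below all WT mice, with a log2 fold change of -1.62 (SE 0.16, adjusted p = 3.00e-08, edgeR). Gstp2 ran from 14.0 to 55.0 CPM in KO with a median of 23.0, and from 47.0 to 141 CPM in WT with a median of 80.4. Its ranges overlapped, and the log2 fold change was -1.68 (SE 0.25, adjusted p = 1.14e-05, edgeR). Gstp3 had a median of 14.9 CPM in KO and 15.5 CPM in WT and was not called, with -0.15, or 0.33 with library size alone. The first 120 coding bases of the 3 genes (GENCODE vM21) show how near the first pair is, with differences from Gstp1 in capitals.

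Gstp1: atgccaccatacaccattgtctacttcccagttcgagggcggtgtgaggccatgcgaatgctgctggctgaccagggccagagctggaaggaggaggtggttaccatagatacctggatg

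Gstp2: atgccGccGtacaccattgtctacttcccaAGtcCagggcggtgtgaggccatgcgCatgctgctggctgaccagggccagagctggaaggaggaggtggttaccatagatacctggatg

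Gstp3: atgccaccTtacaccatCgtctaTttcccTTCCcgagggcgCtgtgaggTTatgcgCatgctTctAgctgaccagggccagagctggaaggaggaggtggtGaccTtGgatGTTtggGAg

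Gstp2 differs from Gstp1 at 6 of these bases and Gstp3 at 21. Over the whole coding sequence Gstp1 and Gstp2 are 98.1% identical, while the closest member to Gstp3 is Gstp2 with 73.23%. Because fragments of Gstp1 could be counted for Gstp2, the pair was also summed. The sum averaged 405 CPM in KO and 1247 CPM in WT, a log2 fold change of -1.63 (SE 0.16, adjusted p = 3.20e-08, edgeR).

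The other Gst classes moved less. Gstz1, the maleylacetoacetate isomerase of tyrosine breakdown, ran from 293 to 508 CPM in KO with a median of 392.3, and from 623 to 718 CPM in WT with a median of 666. The groups did not overlap, with a log2 fold change of -0.78 (SE 0.08, adjusted p = 2.24e-08, edgeR), and 22.6% of its exon bases overlap Pomt2. Gstk1, the kappa class enzyme of mitochondria and peroxisomes, ran from 63.3 to 114 CPM in KO with a median of 82.1, and from 101 to 144 CPM in WT with a median of 126. Its log2 fold change was -0.51 (SE 0.09, adjusted p = 6.35e-05, edgeR), and -0.04 (adjusted p = 0.675) with library size alone. In the theta class Gstt2 rose by a log2 fold change of 0.37 (adjusted p = 2.84e-03, edgeR), while Gstt1 and Gstt3 were not called, with values of -0.25 and 0.24. Gsto1, the omega class thioltransferase, had a median of 85.7 CPM in KO and 90.1 CPM in WT and was not called. Under scaling by library size Gsto1, Gstt1 and Gstt3 were each called higher, at 0.41, 0.23 and 0.71 on the log2 scale (adjusted p = 6.61e-06, 0.0377 and 1.06e-03, edgeR).

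Compared per gene length (deposited RPKM, mean ± SD over 10 mice), Gstp1 stood first among Gst genes in WT with 1557 ± 360, before Gsta3 with 812 ± 106 and Gstm1 with 622 ± 85.6. In KO Gstm1 stood first with 794 ± 102, and Gsta3 with 574 ± 108 and Gstp1 with 507 ± 148 followed within each other's spread. Gstp1 made up 36.2% ± 5.70 of the summed Gst RPKM in WT and 15.6% ± 3.90 in KO. Gstm3 went from 0.667% ± 0.247 to 7.20% ± 2.47 of that sum.

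The Ugt1a genes of chromosome 1 (88055411 to 88220002) each have a first exon of their own and share the remaining exons. The shared part is 72.2% of the exon bases of Ugt1a5. Fragments that overlap several genes were left unassigned by the authors (3.38% to 6.26% of fragments in KO and 3.50% to 8.36% in WT were marked ambiguous). The counts of Ugt1a genes thus come mostly from their first exons, and levels per full gene length are too low for them.

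Ugt1a5 was the Ugt gene with the largest rise. It ran from 8.45 to 61.8 CPM in KO with a median of 32.3, and from 2.44 to 14.96 CPM in WT with a median of 7.39. A single KO mouse lay within the WT range, and the log2 fold change was 1.99 (SE 0.31, adjusted p = 1.56e-05, edgeR). Ugt1a9 ran from 13.6 to 83.6 CPM in KO with a median of 40.8, and from 8.21 to 33.9 CPM in WT with a median of 22.9. Its ranges overlapped, with a log2 fold change of 0.85 (SE 0.26, adjusted p = 8.29e-03, edgeR). Ugt1a9 and Ugt1a10 are 95.28% identical, and their sum gave 0.83. Ugt1a1, the bilirubin glucuronosyltransferase, was not called: its median was 123 CPM for KO mice and 100.1 CPM for WT mice. Per kilobase of exon that no other gene holds it had the highest level of the tested Ugt1a genes, 128 CPM in KO and 122 CPM in WT. Ugt1a6a and Ugt1a6b, near copies with 98.37% identity, encode enzymes for small planar phenols. Ugt1a6b had a log2 fold change of -0.38 (adjusted p = 2.33e-03, edgeR), Ugt1a6a was not called with -0.10, and their sum gave -0.24 (adjusted p = 0.0329, edgeR). With library size alone Ugt1a6b had 0.09, while Ugt1a6a at 0.37 and Ugt1a1 at 0.53 were called higher (adjusted p = 2.49e-03 and 7.10e-03, edgeR). Of the 5 tested Ugt1a genes 2 were higher and 1 lower, and under that scaling 4 were higher and 0 lower, so the directions of Ugt1a6a and Ugt1a6b depend on it.

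The Ugt2 genes encode enzymes for steroids, bile acids and drugs. They lie in 1 cluster with Sult1b1, Sult1d1 and Sult1e1 on chromosome 5, from 86889770 to 87591611, with 13 members in all. Of the 10 tested members of the cluster 7 were lower, 2 were higher and 1 was not called. Ugt2b1 ran from 93.1 to 620 CPM in KO with a median of 195, and from 539 to 1374 CPM in WT with a median of 975. KO_391 was the KO mouse at 620 CPM and WT_441 the WT mouse at 539 CPM, and the other KO mice reached 311 CPM at most. The log2 fold change was -2.07 (SE 0.27, adjusted p = 1.83e-06, edgeR), the largest fall among Ugt genes.

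Ugt2b36 ran from 212 to 413 CPM in KO with a median of 296, and from 454 to 709 CPM in WT with a median of 675.5. The groups did not overlap, and the log2 fold change was -1.07 (SE 0.11, adjusted p = 6.58e-08, edgeR). Ugt2b5 ran from 313 to 650 CPM in KO with a median of 428.6, and from 585 to 1005 CPM in WT with a median of 885. It fell by 0.87 on the log2 scale (SE 0.13, adjusted p = 4.54e-06, edgeR) with overlapping ranges. Ugt2b38 ran from 20.7 to 90.7 CPM in KO and from 41.0 to 116 CPM in WT, with a log2 fold change of -0.99 (SE 0.24, adjusted p = 1.30e-03, edgeR). Ugt2a3 fell without overlap, from a median of 266 CPM in WT to 128 CPM in KO, with a log2 fold change of -0.98 (adjusted p = 3.70e-08, edgeR).

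Ugt2b37 (chromosome 5, 87240492 to 87254788) rose between neighbours that fell. It ran from 4.42 to 28.4 CPM in KO with a median of 6.89, and from 0.537 to 6.42 CPM in WT with a median of 3.47. Its log2 fold change was 1.70 (SE 0.43, adjusted p = 2.02e-03, edgeR), with 28.4 CPM in KO_391. Ugt2b37 is 94.65% identical to Ugt2b5 and Ugt2b38 is 97.04% identical to it. The sum of the 3 genes, which Ugt2b5 dominates, averaged 510 CPM in KO and 918 CPM in WT and gave -0.85 (adjusted p = 9.51e-06, edgeR). Ugt2b34 ran from 303 to 419 CPM in KO with a median of 387, and from 215 to 406.9 CPM in WT with a median of 337. Its log2 fold change of 0.24 (SE 0.10, adjusted p = 0.0474, edgeR) lost its call when any of 9 single mice was left out, with KO_402, KO_404, WT_389, WT_406, WT_408, WT_415, WT_427, WT_429 and WT_441 being those mice. Ugt2b35 was not called, with -0.28, or 0.20 with library size alone.

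Ugt3a enzymes are known to use UDP-sugars other than UDP-glucuronic acid, and both genes fell. Ugt3a1 ran from 13.2 to 63.5 CPM in KO with a median of 21.0, and from 20.1 to 105 CPM in WT with a median of 57.9, a log2 fold change of -1.18 (SE 0.30, adjusted p = 2.31e-03, edgeR). Ugt3a2 ran from 82.4 to 275 CPM in KO with a median of 145, and from 180 to 364 CPM in WT with a median of 320, a log2 fold change of -1.05 (SE 0.19, adjusted p = 7.79e-05, edgeR). In both genes the ranges overlapped, and KO_391 was the highest KO mouse and WT_441 the lowest WT mouse.

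Among Ugt genes in RPKM, Ugt2b5 stood first in WT with 442 ± 84.1, followed by Ugt2b1 with 388 ± 99.4 and Ugt2b36 with 330 ± 56.0, neighbours within each other's spread. In KO Ugt2b5 stood at 243 ± 51.9, Ugt2b36 at 158 ± 30.5, Ugt2b34 at 123 ± 13.2 and Ugt2b1 at 92.6 ± 58.6. RPKM is too low for the Ugt1a genes, so this order and the shares below understate them. Ugt1a1 had 36.2 RPKM in KO but 128 ± 28.1 CPM per kilobase of exon that no other gene holds. That level lies within the spread of the RPKM of Ugt2b34 and Ugt2b1. Of the summed Ugt RPKM, Ugt2b1 made up 22.6% ± 3.43 in WT and 9.71% ± 3.38 in KO, and Ugt2b34 made up 6.13% ± 0.570 and 14.2% ± 2.27.

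**Figure D2:**
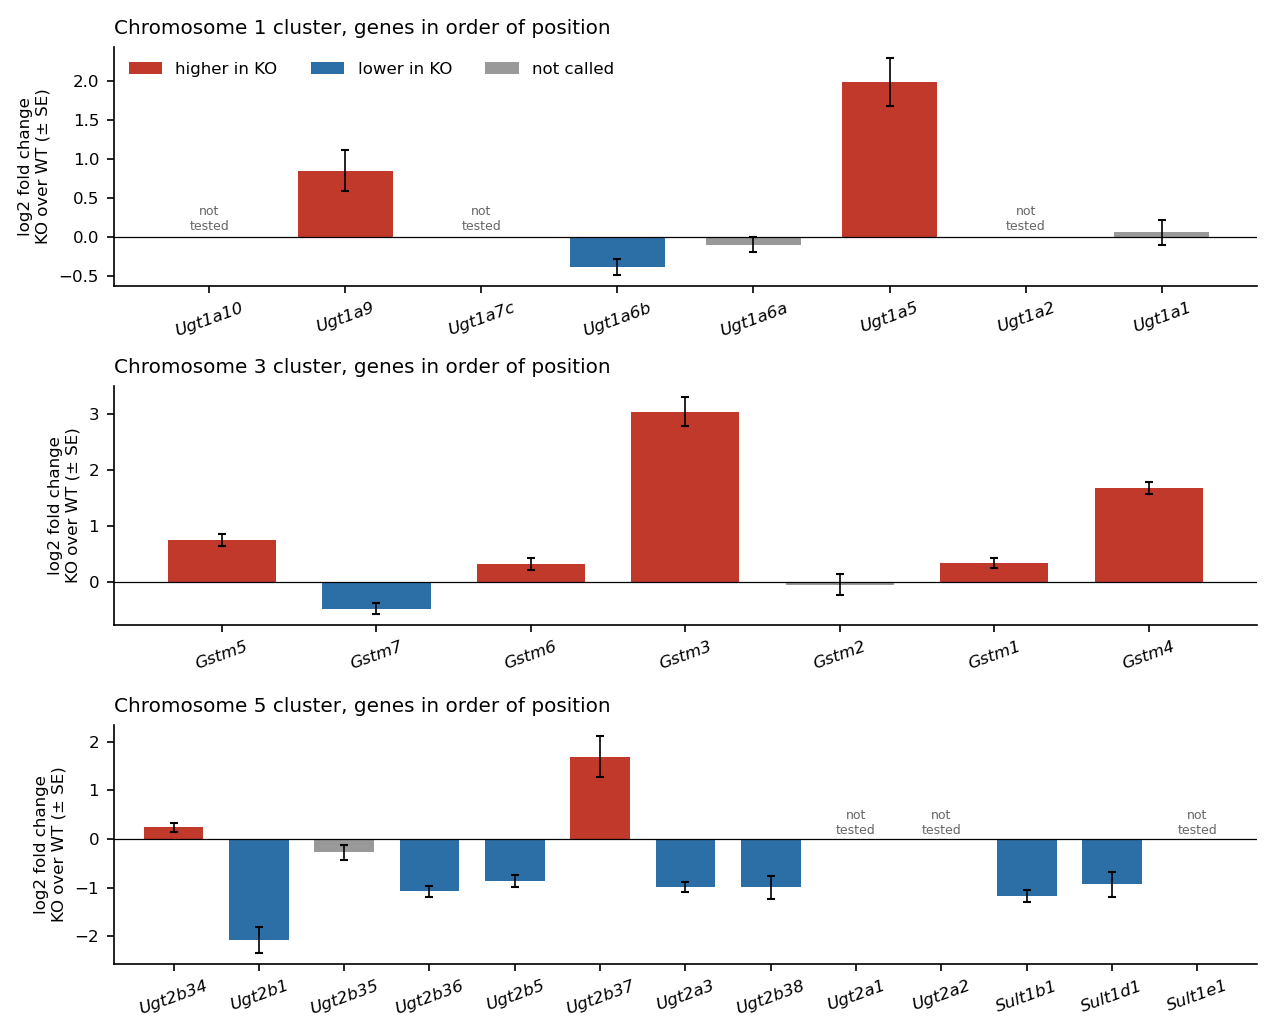
Log2 fold change of KO over WT with its SE (vertical axis) for members in order of position (horizontal axis) in the chromosome 1, 3 and 5 clusters, coloured by call. In the chromosome 5 cluster Ugt2b37 (1.70) stands between Ugt2b5 (-0.87) and Ugt2a3 (-0.98), and in the chromosome 3 cluster Gstm3 (3.04) stands next to Gstm2 (-0.04).

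Of the Sult genes in the table, 10 of 17 were below the filter, and the description rests on 7. Sult2a8, known as a bile acid sulfotransferase of mouse liver, is on chromosome 7 (14410686 to 14446587). It ran from 90.7 to 665 CPM in KO with a median of 271, and from 616 to 1311 CPM in WT with a median of 940. KO_391 at 665 CPM was the KO mouse within the WT range, and the log2 fold change was -1.75 (SE 0.28, adjusted p = 2.48e-05, edgeR). Sult5a1 (chromosome 8, 123142847 to 123158280) had the largest fall among the tested members. It ran from 0.794 to 16.3 CPM in KO with a median of 2.94, and from 9.34 to 88.8 CPM in WT with a median of 54.2, with a log2 fold change of -3.12 (SE 0.57, adjusted p = 1.07e-04, edgeR). Its spread was wide in both genotypes, and the ranges overlapped.

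Sult1b1, a sulfotransferase for thyroid hormones and phenols, ran from 8.45 to 19.2 CPM in KO with a median of 12.7, and from 25.3 to 34.3 CPM in WT with a median of 29.3. The groups did not overlap, and it fell by 1.17 on the log2 scale (SE 0.12, adjusted p = 3.97e-08, edgeR). Sult1d1, which sulfates catecholamines, ran from 51.4 to 167 CPM in KO with a median of 71.1, and from 74.3 to 295 CPM in WT with a median of 133. Its log2 fold change of -0.93 (SE 0.26, adjusted p = 4.54e-03, edgeR) became -0.47 (adjusted p = 0.0745) with library size alone. Sult1c2 had a low level, from 0.747 to 1.83 CPM in KO with a median of 1.47 and from 1.504 to 5.88 CPM in WT with a median of 2.57, and had a log2 fold change of -1.08 (SE 0.23, adjusted p = 3.33e-04, edgeR).

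Sult1a1, the main phenol sulfotransferase, was not called. It ran from 164 to 274 CPM in KO with a median of 215, and from 151 to 367 CPM in WT with a median of 253, a log2 fold change of -0.27 (SE 0.16, adjusted p = 0.144, edgeR). With library size alone it was 0.19 (adjusted p = 0.317), so its sign depends on the scaling. Per gene length Sult2a8 stood first in WT, at 426.97 ± 98.9 RPKM, before Sult1a1 at 191 ± 58.3. In KO Sult1a1 at 159 ± 28.9 RPKM and Sult2a8 at 128 ± 76.5 RPKM lay within each other's spread. Sult1a1 made up 26.4% ± 8.74 of the summed Sult RPKM in WT and 50.1% ± 11.7 in KO, while Sult2a8 made up 57.9% ± 9.37 and 36.0% ± 12.1. Sult2a7 was also not called, with 0.50 (adjusted p = 0.118, edgeR), and became a call when KO_414 or WT_441 was left out and with library size alone (0.94, adjusted p = 3.47e-03).

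**Figure D3:**
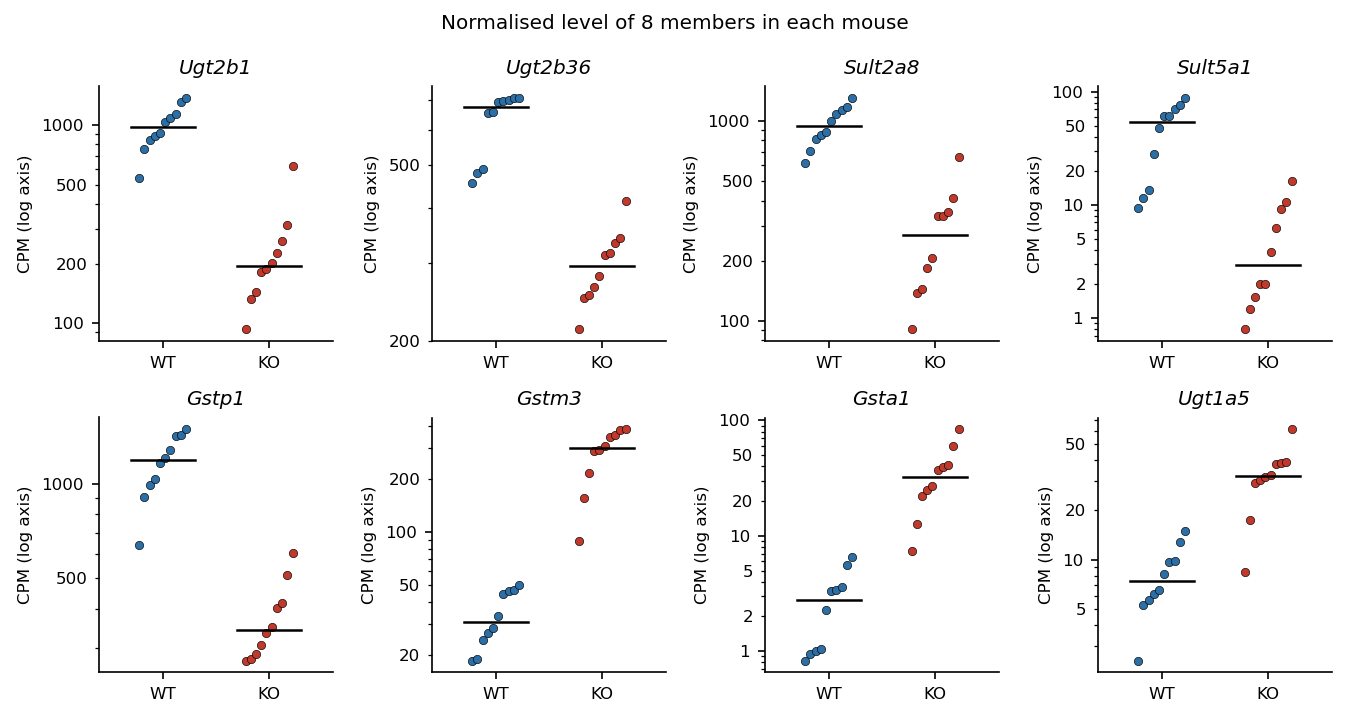
CPM of 8 members in each of 10 WT and 10 KO mice (vertical log axes; points are mice, bars are medians). Ugt2b36 and Gstp1 (KO below) and Gstm3 and Gsta1 (KO above) show no overlap, while 1 or more mice overlap in Ugt2b1, Sult2a8, Sult5a1 and Ugt1a5.

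The 17 members below the filter had genotype medians of at most 0.875 CPM. Chosen here after its values were seen, Sult4a1, a sulfotransferase best known from brain, had 339 fragments over the 10 KO mice and 10 over the 10 WT mice. It ran from 0.310 to 3.12 CPM in KO and from 0 to 0.135 CPM in WT, so that the ranges did not overlap. Without the filter its log2 fold change was 4.60 (adjusted p = 6.93e-07, edgeR). In the same fit Ugt1a2 (169 fragments in KO and 48 in WT) had 1.45 (adjusted p = 3.30e-03), Sult2b1 (22 and 3) had 2.17 (adjusted p = 0.0223) and Ugt1a10 (48 and 93) had -1.32 (adjusted p = 9.15e-03). The remaining 13 (Gsto2, Gstt4, Sult1e1, Sult2a1, Sult2a2, Sult2a5, Sult2a6, Sult3a1, Sult6b1, Sult6b2, Ugt1a7c, Ugt2a1 and Ugt2a2) were not called there. The estrogen sulfotransferase Sult1e1 had 45 fragments in KO and 72 in WT.

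As sums over members, Sult RNA averaged 608 ± 220 CPM in KO and 1454 ± 243 CPM in WT, and Ugt RNA 2079 ± 484 and 3805 ± 643 CPM. Gst RNA averaged 3956 ± 339 CPM in KO and 4813 ± 425.3 CPM in WT. On this scale the mean of each family was lower in KO. Single abundant genes weigh heavily in these sums. Gstp1 averaged 376.8 CPM in KO and 1158.5 CPM in WT, and Sult2a8 286 and 957.7 CPM. Of the 20 tested Gst genes 9 were called higher and 6 lower, so the Gst sum does not describe its members. As percent of assigned fragments, Sult genes held 0.0704% ± 0.0208 in KO and 0.123% ± 0.0164 in WT, and Ugt genes 0.242% ± 0.0429 and 0.321% ± 0.0390. Gst genes held 0.4658% ± 0.0472 in KO and 0.409% ± 0.0296 in WT. The order of the genotypes in the Gst total therefore flips with the scaling, whereas Sult and Ugt totals were lower in KO on both scales. No test was made of these sums.

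**Figure D4:**
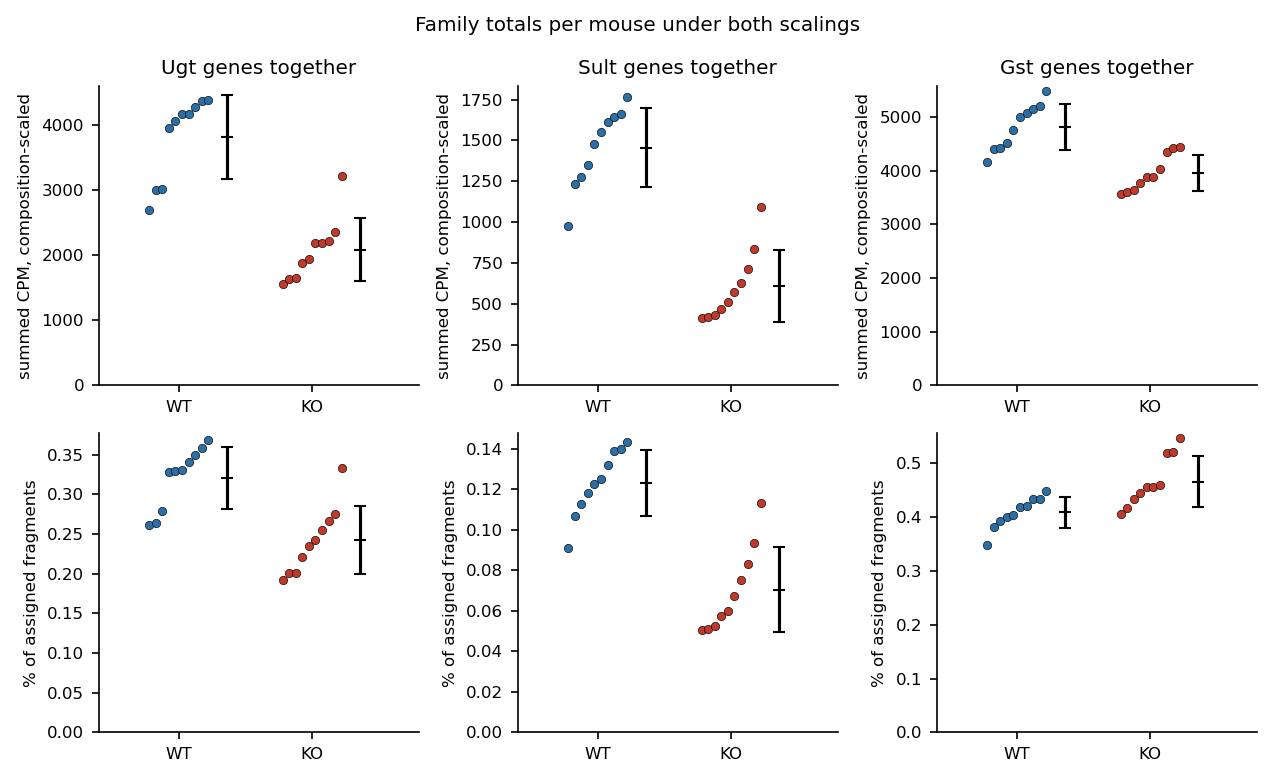
Summed level of the Ugt, Sult and Gst genes in each mouse, as composition-scaled CPM (upper row) and as percent of assigned fragments (lower row), with mean ± SD beside the points of 10 mice per genotype. The Gst means are 3956 CPM in KO and 4813 CPM in WT but 0.4658% and 0.409% of fragments, while Ugt and Sult means are lower in KO in both rows.

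Positions of single mice between the genotypes were compared over the called members. Each mouse was placed, per called member, on a log2 CPM line with the WT mean at 0 and the KO mean at 1. The mouse itself was left out of the mean of its genotype. Over the 32 called members KO_391 had a median position of 0.476, and it was the KO mouse nearest to WT in 18 of them. WT_441 had a median position of 0.434 and was the WT mouse nearest to KO in 13, and WT_415 was so in 8 with a position of 0.232. This did not hold for each member: in Ugt1a9 (83.6 CPM, other KO mice at most 58.6) and Ugt2b37 (28.4 CPM, other KO mice at most 22.7) KO_391 was the KO mouse farthest from WT. The remaining KO mice had medians between 0.890 (KO_402) and 1.51 (KO_434). KO_391 also had the highest multi-mapping share of the KO mice (8.46%) and the lowest KO composition factor, and WT_441 the lowest multi-mapping share of the WT mice (3.38%) and the highest WT factor. The part of these measures in the results was not tested. Without both mice 13 members were higher and 20 lower.

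**Figure D5:**
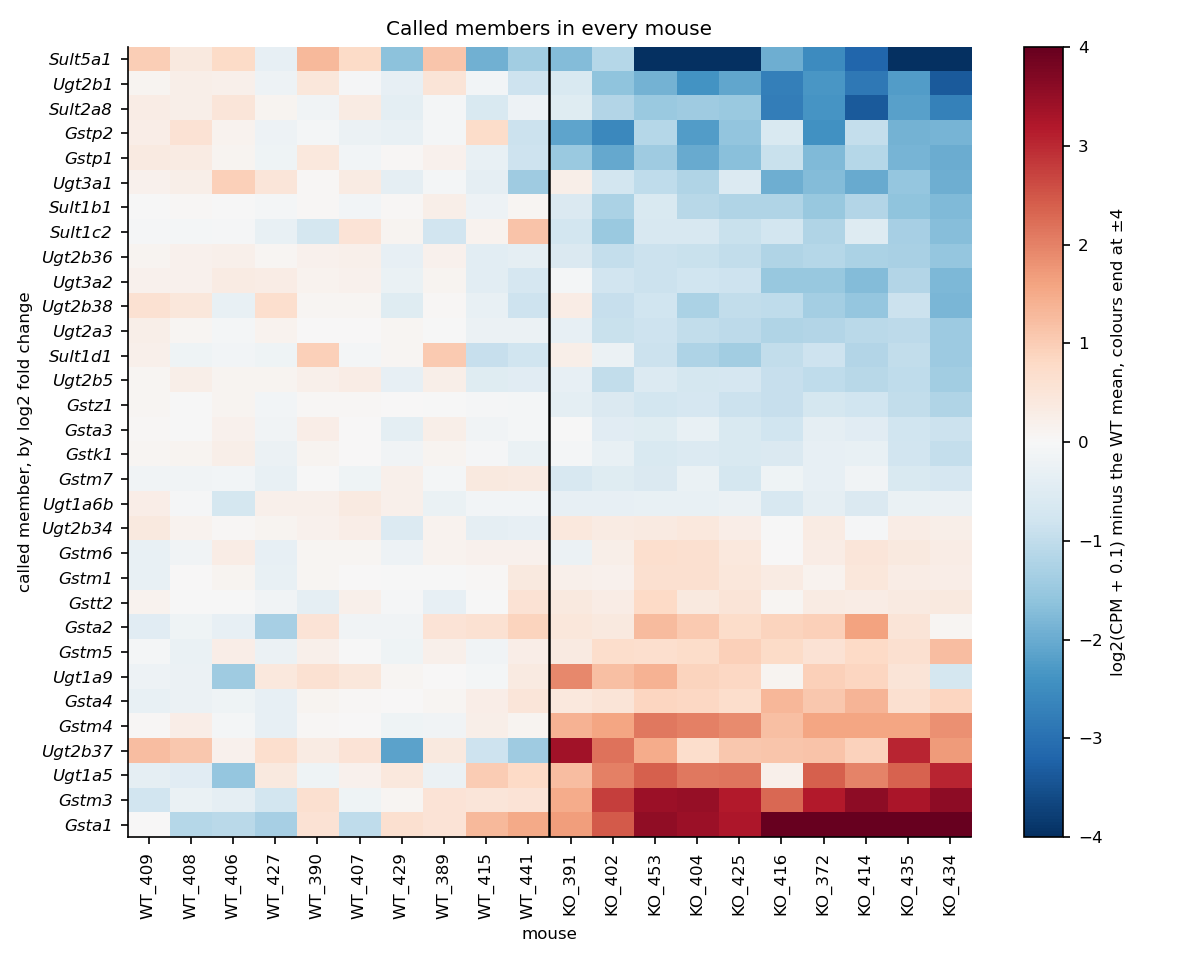
Log2(CPM + 0.1) of the 32 called members (rows, by fold change) in each mouse (columns) minus the WT mean, with mice of each genotype ordered by their median position over these members, so that the order of columns is no result. KO_391 is the KO mouse nearest to WT in 18 of the 32 rows, and for Ugt2b38, at 90.7 CPM, it lies above the WT mean.

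In the authors' deposited table of their own test (ROTS), 41 members were listed, of which 29 had an FDR under 0.05, where 40.9% of all genes in that table did. In the authors' deposited table these were 11 higher and 18 lower members, and edgeR called all 29 in the same direction. The members called by edgeR with an FDR of 0.05 or more in the authors' deposited table were Gstm6, Ugt1a6b and Ugt2b34. The authors' deposited table of gene ontology terms gave an FDR of 0.0187 for glutathione transferase activity, 0.0124 for glucuronosyltransferase activity and 0.536 for sulfotransferase activity.

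Genes that supply, carry or break down conjugates were read from lists. Of all tested genes 28.2% were called higher and 31% lower, and 68.4% and 6.71% with library size alone. The counts of these and the following lists stand beside those shares, and no list was tested as a set. For UDP-glucuronic acid 2 of 4 genes rose and the other two were not called, with Ugdh, which makes UDP-glucuronic acid, at 299 ± 48.2 CPM in KO and 137 ± 21.5 CPM in WT (log2 fold change 1.12, adjusted p = 6.01e-09, edgeR). For PAPS 2 of 8 rose and 5 fell, with a median of -0.26, and with library size alone 4 were higher and 1 lower, with a median of 0.22. Slc26a1, a sulfate carrier, had a log2 fold change of -0.75 (adjusted p = 6.69e-07, edgeR), and Impad1, which degrades PAP in the Golgi, rose by 0.71 (adjusted p = 1.09e-06). For glutathione 4 of 9 rose and 3 fell. Gsr, the glutathione reductase, rose by 1.08 (adjusted p = 2.34e-10, edgeR), while the transsulfuration genes Cth and Cbs had log2 fold changes of -1.30 and -0.98 (adjusted p = 1.46e-05 and 1.15e-05).

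Of 7 genes for efflux of conjugates 5 rose and 1 fell. The basolateral exporters Abcc3 and Abcc4 rose by log2 fold changes of 1.44 and 2.39 (adjusted p = 2.42e-09 and 3.33e-05, edgeR), and Abcc6 fell by 0.71. Of 12 genes for deconjugation and mercapturate formation 3 rose and 5 fell. Ggt1, which starts the breakdown of glutathione conjugates, averaged 17.1 ± 8.17 CPM in KO and 0.0825 ± 0.117 CPM in WT (adjusted p = 3.51e-11, edgeR). Nat8, the N-acetyltransferase that completes mercapturates, had a log2 fold change of -2.27 (adjusted p = 2.38e-06, edgeR). Of these 12, library size alone made 6 higher and 3 lower, and the median went from -0.22 to 0.26. Of 17 other transferases 4 rose and 10 fell, or 7 and 4 with library size alone, where the median went from -0.43 to 0.04. Named among them were Mgst3, a membrane-bound glutathione transferase, at 1.94 (adjusted p = 1.67e-07) and Tpst1, a tyrosylprotein sulfotransferase, at -0.95 (adjusted p = 8.79e-10, edgeR).

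Of 15 receptors and regulators 3 rose and 11 fell, with a median of -0.42, and with library size alone 5 were higher and 1 lower, with a median of 0.05. Nfe2l2 rose by 0.79 (adjusted p = 4.56e-07, edgeR) and Keap1, which holds its product in check, by 0.55 (adjusted p = 2.02e-07). Among those that fell, Nr1h3 had -0.45 and Nr3c1 -0.42 (adjusted p = 5.73e-07 and 2.51e-06, edgeR), or 0.02 and 0.04 with library size alone. Nr1i3, the gene of the receptor CAR, had -1.08 (adjusted p = 9.50e-05, edgeR), or -0.61 with library size alone. Of 13 tested NRF2 targets outside the families 10 rose and the other 3 were not called, with a median of 0.76. Srxn1, a sulfiredoxin, averaged 231 ± 67.9 CPM in KO and 31.4 ± 3.96 CPM in WT, and Gpx2, a glutathione peroxidase, 30.4 ± 12.6 CPM in KO and 0.0514 ± 0.0587 CPM in WT. Of 5 aryl hydrocarbon receptor targets 3 rose and 1 fell: Cyp1a2 had a log2 fold change of -2.36 (adjusted p = 2.05e-08, edgeR) and Nqo1, also an NRF2 target, rose by 2.10 (adjusted p = 1.74e-08). Cyp1a1 was not called, with 0.14 (adjusted p = 0.701, edgeR). Of 10 targets of the receptors CAR and PXR 4 rose and 3 fell, where 28.2% of all tested genes were higher and 31% lower. Among them Cyp3a11 had 1.66 (adjusted p = 8.00e-07) and Cyp2c29 -1.80 (adjusted p = 2.17e-06, edgeR).

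Marker genes of cell types moved with genotype too. All 6 hepatocyte markers fell, with a median of -0.94 and a summed level of 44930 to 58720 CPM in KO and 78550 to 106800 CPM in WT. All 8 macrophage markers rose, with a median of 1.15 and 250.8 to 494.9 CPM in KO and 111.6 to 241.8 CPM in WT. All 5 stellate cell markers rose (208.6 to 357.6 CPM in KO, 113.5 to 207 CPM in WT). Of 5 markers of sinusoidal endothelium 2 rose and the other 3 were not called (141.5 to 178.2 CPM in KO, 99.4 to 187.8 CPM in WT). Of 5 biliary markers 2 rose, Sox9 fell, and Krt19 and Krt7 were not called (48.95 to 189.2 and 23.89 to 56.03 CPM). Most of the biliary sum was Spp1, which averaged 76.6 ± 49.6 CPM in KO and 31.0 ± 11.4 CPM in WT. Of 3 tested lymphocyte markers Ptprc rose (9.333 to 25.61 and 6.049 to 20.25 CPM). Of 3 erythroid markers Alas2 fell (36.65 to 135.6 and 164 to 368 CPM for the list), while Hbb-bs and Hba-a1 were not called (adjusted p = 0.202 and 0.168, edgeR). Alas2 was the largest part of the WT sum, at 155 ± 18.3 CPM, and averaged 31.4 ± 11.4 CPM in KO. Scaled by library size, all 5 endothelial markers and 3 of 5 biliary markers were called higher, and 5 of 6 hepatocyte markers were lower. None of these lists had a marker at 0 in all mice. In pieces of whole liver, fewer cells of a type and less RNA per cell cannot be told apart, and the part of cell makeup in the changes of the members was not tested.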

How the data were processed

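Total RNA of 20 mouse livers was sequenced, and genotype was taken from the sample labels. The authors deposited raw counts of fragments per Entrez gene. The file names give Rsubread with mm10 RefSeq annotation and ROTS, and the submitters' processing notes list DESeq2 and HISAT2 2.0.5. The deposited fragment statistics give the number of multi-mapping fragments per library and list ambiguous fragments as unassigned. Whether and how multi-mapping fragments entered the counts of genes was not settled here. Whether strand was used is not stated. A normalized signal was also deposited, equal to CPM over the TMM effective library size (largest relative deviation 4.88e-15) and printed here as CPM, with RPKM values from it. Their ROTS table holds a log2 fold change, p-value and FDR per gene, and their ontology tables an FDR p-value per term, per the file headers. Of the fragment statistics 22 columns were not used. No symbol is given for 620 genes.

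Counts were fitted with edgeR 4.0.16 in R 4.3.3 (TMM, filterByExpr with minimum count 10 and total 15, robust quasi-likelihood F test, Benjamini-Hochberg adjustment over 13670 genes, threshold 0.05). Genes left out held 0.0858% of fragments. The test was also run on simulated counts in which 200 genes were changed, as many up as down. That is far fewer changed genes than were called in the data, so the simulation does not bear on the choice of scaling. Alternatives were 3 other scalings, 2 other filters, DESeq2 1.42.0, limma 3.58.1 (voom with sample weights, and trend on log2 RPKM plus 0.1 or plus 1), leaving out mice, and summing near copies. Coding identity was computed with Biopython 1.88 on GENCODE vM21 for 557 pairs.

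Members, 17 gene lists, tests and alternatives were chosen with earlier results of these data known. Named members were, per family, the 3 with the highest mean RPKM and up to 5 rises and 5 falls with the largest change among called genes with mean log2 CPM of at least 1; of each list up to 4 genes with the smallest adjusted p qualified. Krt7, Nr1i3 and Cyp1a1 were named beyond this rule. With no label on litters or cultures, the mouse is the replicate.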

Additional observations from a re-analysis of the deposited data

Results flagged for a closer look

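Each genotype's 10 values of the 27 members named by rule, 54 groups in all, were searched for a mouse that stood far from the others, which chance does in about 1 of 20 groups. It was found in 2 groups. Ugt1a9 in WT_406 was at 8.209 CPM, where the other WT mice had 18.75 to 33.95 CPM. Ugt2b38 in KO_391 was at 90.7 CPM, where the other KO mice had 20.73 to 42.25 CPM. Without KO_391 Ugt2b38 had a log2 fold change of -1.19 (adjusted p = 1.49e-05, edgeR).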

How the results depend on the processing

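No paired analysis was possible because the numbers in the labels are mouse numbers and the genotypes share none. Library size alone left 3 Gst genes lower in place of 6 and made 1 Sult gene higher in place of 0; it reversed Sult1a1 to 0.19 and ended the calls of Gsta3, Gstk1 and Sult1d1 among the 27 named members. Without the filter 2 Sult genes were higher (Sult2b1 and Sult4a1, 17 fitted), and without KO_391 and WT_441 together 1 was (Sult2a7). At an unadjusted p the 2 uncalled Sult genes, Sult1a1 and Sult2a7, also missed 0.05 in edgeR, and DESeq2, limma-voom and limma-trend called 0 Sult genes higher. Leaving out each mouse in turn gave 12 to 14 members higher and 19 to 21 lower: Gst 9 higher and 6 to 7 lower, Ugt 3 to 5 and 8 to 9, Sult 0 to 1 and 5. Ugt2b34 lost its call under 9 of these 20 omissions, without the filter (0.24), with voom (0.21) and without both mice (0.21). DESeq2 size factors, upper-quartile factors, the stricter filter, DESeq2 and limma-trend kept the direction and call of all 27 named members. Summing by protein identity was not run, and coding identity of at least 90% was used instead, chosen after seeing the data. Genes under about 1 CPM are limited by depth.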
